A study of Mus musculus with 4 samples.

Results

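Replication-dependent histone genes supply the histones that package newly copied DNA, and most of those of the mouse lie close together on chromosome 13. Their accessibility was examined here in mouse embryonic stem cells by ATAC-seq, in which a transposase cuts open chromatin. The genes were chosen by position and name alone: every gene from 21.6 to 23.9 Mb on chromosome 13 (mm10, the assembly also called GRCm38) whose RefSeq symbol is one of the H1f, H2ac, H2bc, H3c or H4c series or their older Hist1h names. This gave 54 genes of 21885 examined, 6 for the linker histone H1, 14 for H2A, 14 for H2B, 9 for H3 and 11 for H4. Of these, 52 were protein-coding and 2, H2ac14 and H2ac5-ps, were pseudogenes. The gene listed as H4bc24 carries the older symbol Hist1h2br and was counted with H2B.

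The study set wild-type cells (labelled wt) against Hox-/- cells, in which all Hox function is missing according to the title of the series. Per the labels, all cells of both genotypes were grown in medium with serum, leukaemia inhibitory factor, the GSK-3 inhibitor CHIR99021 and the MEK inhibitor PD0325901. Each genotype had 2 libraries, and nothing in the labels says whether these came from separate cultures or clones, so any spread between them may be technical. Each library came with its own list of called peaks, with 213705 (replicate 1) and 216795 peaks (replicate 2) for wt and 191704 and 200214 for Hox-/-. The lists hold no read counts, so the sequencing depth is unknown. At the 39 Hox genes, peaks were listed within 1 kb of 37 in each wt library and of 4 in each Hox-/- library. All 7 stem cell marker genes examined and all 11 markers of other cell types had peaks in every library. Their median ranks were 10542 and 46062. The sets overlapped, with stem cell markers as poor as 37633 and other markers as good as 21352 by the mean over libraries.

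Histone genes of this kind have no introns as a rule, and their messenger RNA ends in a stem-loop instead of a poly(A) tail. They are transcribed in S phase under NPAT, a coactivator that cyclin E-CDK2 phosphorylates at the histone locus body, a nuclear body that forms on the clusters. Stem-loop binding protein and U7 small nuclear ribonucleoprotein then direct the processing of the transcript's end. Many H2A and H2B genes stand back to back and share 1 promoter between them. Promoters of each class carry their own short elements beside the general TATA box and the CCAAT box, which NF-Y binds.

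The promoters of the genes with the strongest peak of their class are shown to set some of these elements side by side, as the 250 bases upstream of the annotated start, 5′ to 3′ along the gene, from RefSeq (GRCm38.p6). Capitals mark the letters searched, on either strand. These were TATAAA, known as the TATA box, and CCAAT, known as the CCAAT box. The octamer searched, which the factor OCT1 binds, was ATTTGCAT. The element called the H1 box was searched as AAACACA, and the core of an element of H4 promoters as GGTCC. Each appears as its reverse complement where it lies on the other strand, and overlaps between elements were not treated separately. H1f2 (chr13:23738557-23738806, + strand), H2ac12 (chr13:22035644-22035893, − strand), H3c8 (chr13:23535168-23535417, + strand) and H4c8 (chr13:23530794-23531043, + strand) follow. H2bc12, the H2B gene with the strongest peak, starts 178 bp from H2ac12 on the other strand, so the H2ac12 sequence also holds the part of its promoter next to its start.
H1f2: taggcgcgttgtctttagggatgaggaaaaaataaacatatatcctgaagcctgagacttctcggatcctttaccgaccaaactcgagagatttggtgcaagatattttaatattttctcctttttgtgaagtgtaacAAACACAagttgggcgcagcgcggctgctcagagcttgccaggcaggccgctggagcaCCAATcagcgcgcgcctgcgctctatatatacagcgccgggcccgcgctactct
H2ac12: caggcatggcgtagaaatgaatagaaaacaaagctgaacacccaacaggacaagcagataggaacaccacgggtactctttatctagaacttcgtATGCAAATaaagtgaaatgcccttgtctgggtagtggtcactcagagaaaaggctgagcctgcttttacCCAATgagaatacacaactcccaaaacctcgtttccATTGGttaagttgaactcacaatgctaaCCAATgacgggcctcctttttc
H3c8: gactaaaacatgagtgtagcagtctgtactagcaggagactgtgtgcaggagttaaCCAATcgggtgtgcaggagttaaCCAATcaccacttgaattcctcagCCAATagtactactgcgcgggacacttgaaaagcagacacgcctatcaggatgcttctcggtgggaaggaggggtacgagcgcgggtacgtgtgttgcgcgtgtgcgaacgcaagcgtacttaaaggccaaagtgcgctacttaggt
H4c8: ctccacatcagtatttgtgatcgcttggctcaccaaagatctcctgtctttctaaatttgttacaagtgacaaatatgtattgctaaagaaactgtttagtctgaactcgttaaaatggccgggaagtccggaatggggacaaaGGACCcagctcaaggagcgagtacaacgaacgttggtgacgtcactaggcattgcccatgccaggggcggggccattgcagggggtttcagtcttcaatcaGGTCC
The H1 box and CCAAT lie in the H1f2 sequence, the octamer and CCAAT in that of H2ac12, CCAAT alone in that of H3c8, and GGTCC alone in that of H4c8. TATAAA is in none of these 4 stretches; that of H2bc12, on the other strand 198 bp before its start, lies outside the stretch shown.

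Promoter sequences of 300 bases, 250 before to 50 after a start, were found for 49 of the 54 genes (50 windows, since a gene can have more than 1 start). CCAAT stood in 84% of these windows and in 37.4% of all 32851 promoters of the table. It was in each window of the H1 (6), H2A (12), H2B (14) and H3 (7) genes but in 3 of 11 of the H4 genes. TATAAA stood in 58% of the histone windows and in 13.6% of all promoters. The octamer was found in 4 of 12 H2A and 5 of 14 H2B windows and in none of the other classes, against 1.74% of all promoters. Windows of back-to-back genes overlap, so the same letters can count for both classes. This holds for the octamer of H2ac12 with H2bc12 and that of H2ac8 with H2bc8. The H1 box was found in 5 of 6 H1 windows, 112 to 122 bp before the start, against 7.18% of all promoters. GGTCC was found in 10 of 11 H4 windows against 45.5% of all promoters. These letter matches describe the windows and were not tested for binding. The histone windows had a median GC content of 45.2%, below the 52.7% of all promoters, while their median ratio of observed to chance-level CpG was 0.77 against 0.38.

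A gene was taken as having a peak when a listed peak overlapped the gene or the 1 kb on either side. By that measure 50 of 54 histone genes (92.6%) had a peak in each of the 4 libraries, and these were the same 50 genes. The exact 95% binomial interval of that share was 82.1% to 97.9%, which covers counting error only, and neighbouring genes that share a peak are not independent. Peaks stood in all 4 libraries at 6 of 6 H1, 13 of 14 H2A, 12 of 14 H2B, 9 of 9 H3 and 10 of 11 H4 genes. Of 2536 other protein-coding genes spanning at most 2 kb, 506 had a peak in all libraries (19.95%), and of all 21831 other protein-coding genes, 78.3%. Among 55 other protein-coding genes of the same stretch of chromosome 13 the count was 13 (23.6%), of which 3 came from 41 vomeronasal and olfactory receptor genes and 10 from the 14 remaining genes.

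The histone genes fell into 3 groups along the chromosome. The first, with 19 genes, spanned 121.8 kb (21715711 to 21837530). The second, with 5 genes, spanned 8.54 kb (22035122 to 22043658), and the last, with 30 genes, 233.4 kb (23531044 to 23764412). All genes of the second and last groups had a peak in every library, and 15 of 19 did in the first. Per 100 kb, the first group held 29.6 to 32.0 peaks over the 4 libraries and the last 29.1 to 32.1, against 7.46 to 8.38 for chromosome 13 as a whole. Between the first and second groups, where 3 other protein-coding genes lie, the density was 32.9 to 36.4. Between the second and last groups the density was 8.07 to 9.01.

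The 4 genes without a peak in any library were H2bc23, H2ac23, H4c17 and H4bc24, an H2B, an H2A, an H4 and an H2B gene of the first group. They lie in a stretch from 21806412 to 21837530 that holds 6 histone genes in mirrored order of class, H2bc23, H2ac23, H4c17 and then H4c18, H2ac24, H4bc24. The promoter windows of H2bc23 and H4bc24 were 100% identical, and those of H4c17 and H4c18 were 99.0% identical. The windows of H2ac23 and H2ac24 are anchored on annotated starts that lie at different distances from their partners, and aligned whole from the start they were no more than 79.2% and 61.2% identical to another window. Each nevertheless shared a long identical run (both strands were searched) with the mirrored genes of the stretch: 267 bp between H2ac23 and H4bc24, and 233 bp between H2ac24 and H2bc23. In the 44 windows of the other genes the longest run shared with a histone window elsewhere had a median of 15 bp and did not exceed 72 bp. Aligned whole, the highest identity of those 44 to any other histone window had a median of 53.6% and did not exceed 87.3%. The 250 bases upstream of H4c17 (chr13:21811496-21811745, + strand) and H4c18 (chr13:21832198-21832447, − strand) are shown because 1 gene of this near-identical pair had a peak and the other had none.
H4c17: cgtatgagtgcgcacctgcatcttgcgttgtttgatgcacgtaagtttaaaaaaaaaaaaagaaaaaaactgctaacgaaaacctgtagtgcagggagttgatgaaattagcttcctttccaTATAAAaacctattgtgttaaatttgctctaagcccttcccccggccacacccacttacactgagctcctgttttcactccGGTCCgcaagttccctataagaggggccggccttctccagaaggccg
H4c18: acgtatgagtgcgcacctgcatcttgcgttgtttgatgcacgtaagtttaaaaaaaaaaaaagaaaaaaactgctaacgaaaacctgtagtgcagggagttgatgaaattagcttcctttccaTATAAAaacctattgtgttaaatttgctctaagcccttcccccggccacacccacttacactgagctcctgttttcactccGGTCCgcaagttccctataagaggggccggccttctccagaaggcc
Both carry the same TATAAA and GGTCC letters in the same surroundings. The peak at H4c18 was 302, 300, 294 and 302 bp wide in wt replicates 1 and 2 and Hox-/- replicates 1 and 2, with its summit 36 to 39 bp after the start. H2ac24 was counted with a peak through it. How reads that match more than 1 place were treated is not given in the sources used here, and the part of sequence identity in the absence of peaks was not tested.

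The strength of a peak was described by its rank within a library. The best peak of a gene is the one with the highest −log10 p within 1 kb, and its rank is its place by that value among the 122787 regions called in all 4 libraries, with 1 the strongest. The median rank of the 50 histone genes with a peak was 11357, which is 9.25% of the way down the regions. It was 27092 for the 506 other short genes and 13789 for the 17102 other protein-coding genes with a peak in all libraries. By class the medians were 7764 for H2A, 8519 for H1, 8775 for H2B, 13044 for H3 and 19787 for H4. A best peak can lie at the start of a neighbour of another class. The H2A median is that of H2ac4, through the peak at the start of H3c2. The H3 median is that of H3c3, through a peak it shares with H2bc3. Summits within 250 bp of their own starts ranked 66410 to 90086 at H2ac4 and 34457 to 49377 at H3c3. No H4 gene ranked better than 10641 in any library, whereas every other class had genes that did.

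**Figure D1:**
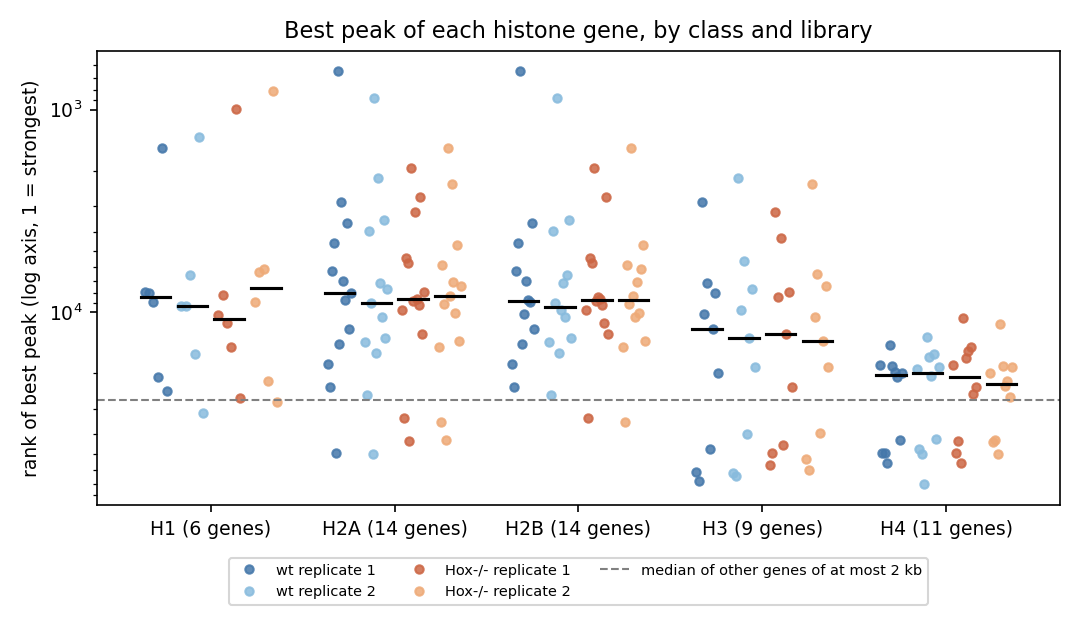
Rank of the best peak of each histone gene on an inverted log axis (1 is the strongest), by class and library, 1 point per gene with a peak. Black bars are class medians and the dashed line is the median of other genes of at most 2 kb, at 27092. The H4 points lie lowest as a class, with a median of 19787, and the 4 libraries cover much the same range in each class.

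The strongest H1 peak was that of H1f2 (H1.2), with ranks of 1552 and 1361 in wt and 996 and 811 in Hox-/-. The poorest of the H1 genes was H1f1 (H1.1), at 24528 and 31322 in wt and 26344 and 27685 in Hox-/-. The H1f1 ranks of the genotypes overlapped, and those of H1f2 did not. H1f6, the testis-specific H1t, lies between the somatic genes, and its best peak, at 20805, 16126, 14845 and 21860, was the one that peaked beside the start of H4c3. Over its own gene body H1f6 had a listed summit in both wt libraries and in Hox-/- replicate 2, with ranks of 113696, 115089 and 117731, and none in Hox-/- replicate 1. The 2 testis-specific genes H2ac1 and H2bc1 lie just beyond the examined stretch and shared 1 peak with ranks of 30658, 30314, 26648 and 32956.

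H2ac12 and H2bc12 shared the strongest peak of the core histone genes, ranked 648 and 879 in wt and 1935 and 1549 in Hox-/-. The poorest H2A gene was H2ac24, through the H4c18 peak, at 49268, 50240, 43365 and 42532. The poorest H2B gene was H2bc14, which shares its peak with the pseudogene H2ac14, at 23323, 25709, 33294 and 34648. So the H2B genes with a peak ranked at 34648 or better in every library, while H2A, H3 and H4 each had genes with poorer ranks in all 4.

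The H3 gene with the strongest peak was H3c8, at 2861 and 2183 in wt and 3214 and 2322 in Hox-/-, a peak that also served as the best of H2ac10. The poorest was H3c11, at 67545, 63914, 49284 and 59879. Of the H4 genes, H4c8 ranked best, at 14521, 13257, 10641 and 11413, and H4c9 poorest, at 55505, 70548, 55620 and 49749. Both H4c8 and H3c11 ranked higher in each Hox-/- library than in either wt library, and H4c9 did so in Hox-/- replicate 2 only.

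The place of the summit differed between classes. Of 48 histone genes with 1 annotated start, 41 (85.4%) had a listed summit within 250 bp of it in all 4 libraries, against 12.1% of 2102 other short genes. Of the genes with a peak in all 4 libraries, these were 41 of 44 (93.2%) and 254 of 404 (62.9%). Not all of these were the gene's best peak, and the tally by place that follows was chosen after the values had been seen. Of the 44 with a peak in all 4 libraries, the best summit lay upstream of the start in 27, inside the gene in 3, beyond the gene's end in 10, and in different places in different libraries in 4. Of those beyond the end, H2ac24, H2ac10, H2ac4 and H1f6 had the summit near a neighbour's start. These neighbours were H4c18, H3c8, H3c2 and H4c3. Of 404 other short genes with a peak, the shares were 45.3% upstream, 27.0% inside, 12.9% beyond the end and 14.9% varying. Those of the histone genes were 61.4%, 6.82%, 22.7% and 9.09%. The 22.7% includes H2ac24, H2ac10, H2ac4 and H1f6, and the 61.4% includes H3c3 through the summit near the start of H2bc3. The shares of neither set leave out summits near a neighbour's start, so they do not compare the genes' own summits alone. When only the summits within 250 bp of a start were ranked, the medians were 8516 for H2A, 9648 for H2B, 27360 for H1, 40505 for H3 and 43995 for H4, with 21280 for other short genes.

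**Figure D2:**
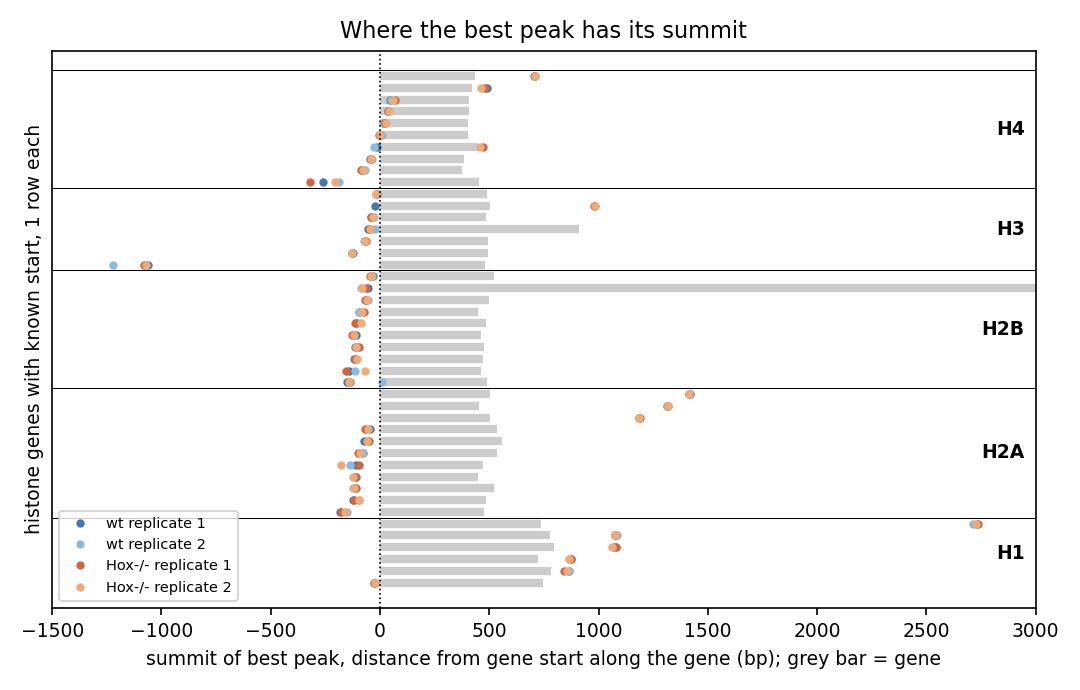
Distance of the summit of the best peak from the gene's start along its direction of transcription, in bp, for histone genes with a known start and a peak, 1 row per gene and 1 point per library. Grey bars mark the genes (1 H2B gene runs past the right edge). H2A and H2B summits lie mostly just left of the start, while 5 of 6 H1 genes have all 4 points to the right of the grey bar. Of these, H1f6 has them through the summit beside the start of H4c3.

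The H1 genes stood out by this measure. In 5 of 6 the best summit lay beyond the gene's end in every library. For H1f6 this was the summit beside the start of H4c3, 1981 to 2001 bp past the H1f6 end. In the 4 somatic ones of the 5, H1f2, H1f3, H1f4 and H1f5, it lay 140 to 151, 298 to 309, 63 to 85 and 270 to 286 bp past the end. The summit at the start of H1f2 ranked 23444, 21266, 19277 and 20138 in wt replicates 1 and 2 and Hox-/- replicates 1 and 2, far behind the 1552, 1361, 996 and 811 beyond its end. At H1f5 the start ranked 49750, 58034, 43362 and 52974 and the place beyond the end 7908, 9336, 10358 and 8894. Both genes thus had their weaker summit at the promoter in each library.

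H1f4 was alike, with 44842, 41299, 42192 and 51734 at the start against 8896, 6579, 11252 and 6089 beyond the end. At H1f3 the places were closer, 11084, 13630, 14353 and 13965 at the start against 7988, 9311, 8238 and 6327 beyond the end. H1f1 was the exception: its best summit lay 22 to 28 bp before the start, and the summit past its end ranked 79336, 73647, 75868 and 66474. In H1f2, H1f3 and H1f5 a single peak interval covered the whole gene from promoter to beyond the end in each library, and in H1f4 it did so in 3 of the 4 libraries.

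Among the H4 genes, H4c8 and H4c11 also had their best summit beyond the end in every library, by 272 to 276 and 38 to 66 bp. H4c2 had a summit at each place. The one at its start ranked 42695 and 42281 in wt and 42359 and 48993 in Hox-/-, and the one at its end 44202 and 42701 in wt and 25162 and 26125 in Hox-/-. Its end summit thus ranked higher in both Hox-/- libraries than in both wt libraries, and its start summit did not. The fold over background that the authors' caller gave the end summit was 3.24 and 3.37 in wt and 4.28 and 4.26 in Hox-/-.

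The H2A and H2B genes were arranged differently. In all, 9 back-to-back pairs of these genes had starts 164 to 268 bp apart, with a median of 180 bp. In 7 of the 9 pairs a summit lay between the starts in all 4 libraries, and in the other 2, H2bc23 with H2ac23 and H2ac24 with H4bc24, in none. The 15 genes of such pairs with a rank had a median of 7439, against 17529 for the 29 other histone genes of known strand with a rank, a description over genes that share peaks in pairs. H2bc4 and H2ac14 have no known strand and could not be paired. H2ac6 and H2bc14, which share a best peak with them, therefore count among the 29.

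Strength within these pairs ran over a wide range. H2ac15 and H2bc15 ranked 6230, 3979, 5375 and 5849, and H2ac8 with H2bc8 7032, 7153, 8628 and 7058. H2bc13 and H2ac13 ranked 17928, 14034, 9777 and 14791, where Hox-/- replicate 1 stood above the other 3 libraries. The ranks of the genotypes overlapped in each of these 3 pairs, whose order was the same in every library.

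The width of the best peak interval differed between classes in its median, while single genes overlapped. By the mean of the 4 libraries, the interval of H3c1 had 1060 bp and that of H1f1 942 bp. Some intervals also count for 2 classes, as that of H1f6 and H4c3 does. The median over genes of the mean width in the 4 libraries was 1453 bp for H1, 1056 bp for H4, 778.4 bp for H2B, 729.5 bp for H2A and 573 bp for H3. All histone genes together had a median of 796.5 bp, against 743 bp for other short genes and 790.8 bp for all other protein-coding genes. The widest interval, 1899, 1845, 1865 and 1171 bp in wt replicates 1 and 2 and Hox-/- replicates 1 and 2, was that of H1f4. It also overlaps H2bc6 and the promoter window of 1 of that gene's 2 annotated starts, where it held another summit, 1310 to 1333 bp from the H1f4 start, with ranks of 9834, 13588, 13054 and 14564. By the mean of the 4 libraries H1f3 came next, with 1607, 1650, 1527 and 1539 bp. The narrowest were those of H3c11, at 209, 265, 264 and 251 bp, and of H4c18 with H2ac24.

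**Figure D3:**
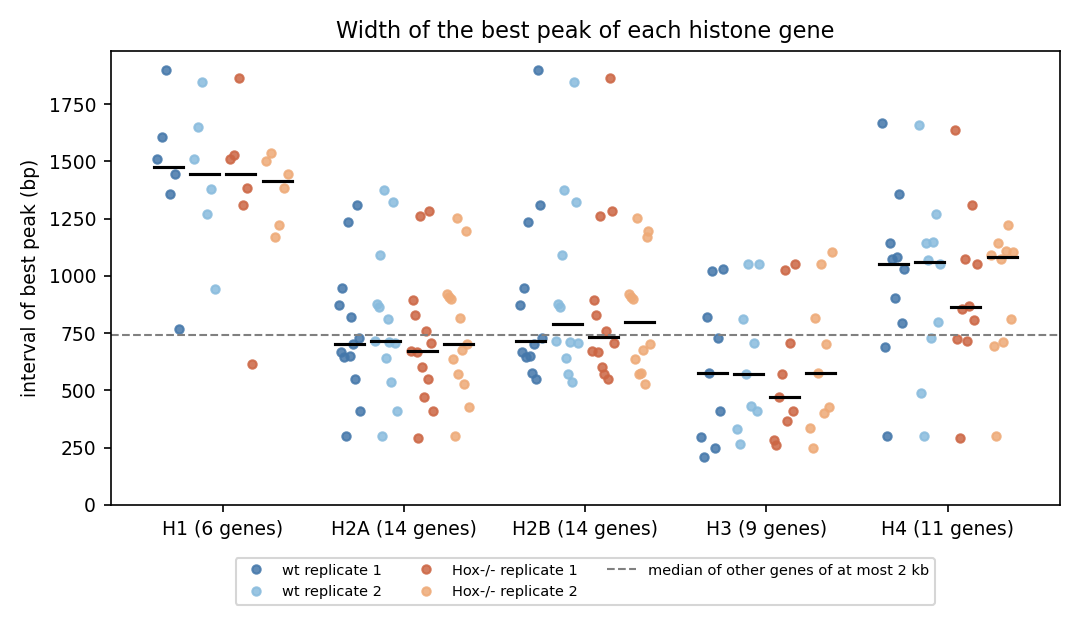
Width in bp of the interval of each histone gene's best peak, by class and library, 1 point per gene with a peak and black bars for class medians. The dashed line is the median of other genes of at most 2 kb, 743 bp. The H1 medians lie highest and the H3 medians lowest in every library.

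Between genotypes the median difference in width, Hox-/- minus wt, was −8.5 bp, with 17 genes wider (34%) and 31 narrower (62%) in Hox-/-, where 33.6% of all other protein-coding genes were wider and 66.0% narrower. It was −20.5 bp for all other protein-coding genes and −23.5 bp for other short genes. Taken without its sign, the difference between genotypes had a median of 40.5 bp per gene, against 23 bp between the wt replicates and 29.5 bp between those of Hox-/-. For all other protein-coding genes these values were 49.5, 45 and 52 bp.

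The comparison the study was built for is that of wt with Hox-/-. Peaks present in each wt library and absent from each Hox-/- library were found at 0 of 54 histone genes, against 0.44% of all other protein-coding genes and 0.355% of other short genes. The reverse was found at 0 of 54 histone genes, against 0.137% and 0.118%. These are counts of listed peaks with no significance test behind them. The rank shift of a gene was taken as its mean log2 rank in wt minus that in Hox-/-, so that a positive value means a better rank in Hox-/-. Over the 50 genes its median was 0.01 (quartiles −0.12 and 0.20), with 26 positive and 24 negative values from −1.20 to 0.82. The median over all other protein-coding genes was also 0.01. Taken without its sign, the shift had a median of 0.13, and the difference between replicates 0.15 in wt and 0.25 in Hox-/-, against 0.20, 0.23 and 0.27 for all other protein-coding genes.

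By class the median shift was 0.03 for H1, −0.06 for H2A, −0.09 for H2B, 0.05 for H3 and 0.07 for H4. With 2 libraries against 2, the 2-sided exact permutation test cannot give a p under 0.33, so no gene can pass 0.05. In place of a test, genes were counted whose 2 Hox-/- ranks both lay beyond both wt ranks. Of the 50 genes, 9 ranked higher in Hox-/- (18%) and 4 lower (8%), where 19.7% and 19.1% of all other protein-coding genes and 17.8% and 15.4% of other short genes did. The first share is close to its background and the second is 2 pairs of genes, each pair with 1 peak. Counting each shared best peak once left 7 higher and 2 lower of 32, with no background share for this way of counting.

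**Figure D4:**
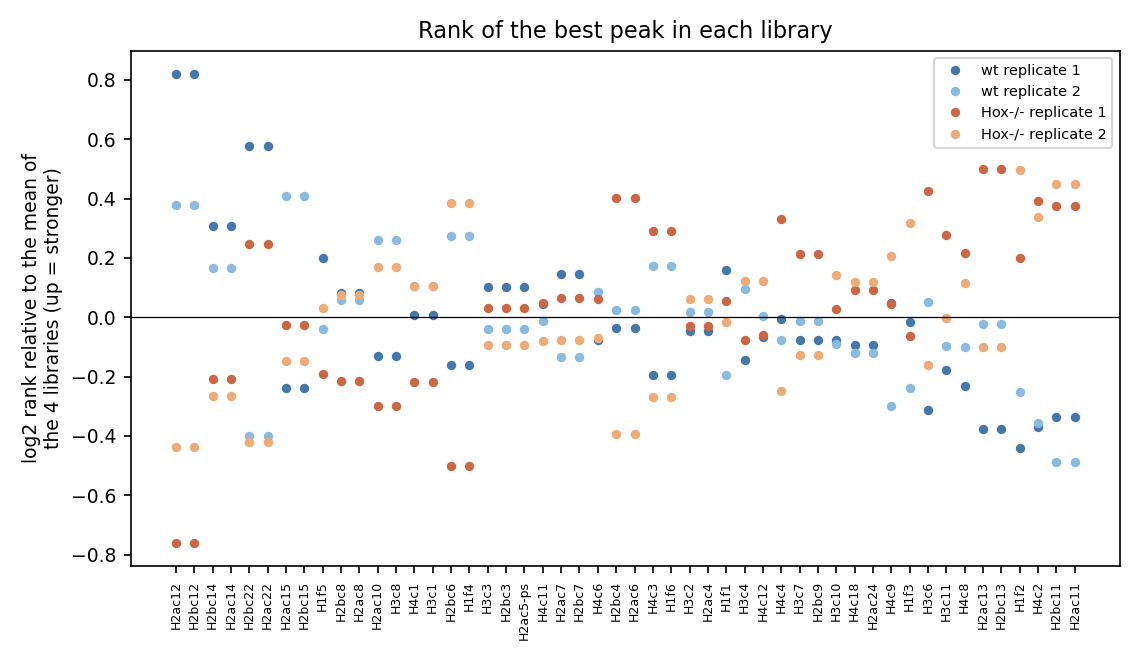
Log2 rank of each histone gene's best peak relative to the mean of the 4 libraries, with values above 0 for a stronger peak, 1 column per gene in order of its rank shift and 1 point per library. Genes that share a peak have equal points. At the left end the wt points of H2ac12 and H2bc12 lie above the Hox-/- points, at the right end those of Hox-/- lie above wt for H2ac11, H2bc11, H4c2 and H1f2, and the points of most genes between are mixed.

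The largest shifts were as follows. The peak between H2ac11 and H2bc11 ranked 14320 and 15937 in wt and 8754 and 8327 in Hox-/-, a shift of 0.82. H4c2 followed with 0.73. Its wt ranks, 42695 and 42281, came from the summit at its start, and its Hox-/- ranks, 25162 and 26125, from that at its end. The end summit itself ranked 44202 and 42701 in wt. After H4c2 came H1f2 with 0.69. In all of these the genotypes did not overlap, and the difference exceeded that between replicates.

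In the other direction stood the peak between H2ac12 and H2bc12, with a shift of −1.20, and that of H2ac14 and H2bc14, with −0.47. The H2ac12 and H2ac11 pairs lie in the same 5-gene group of 8.54 kb and moved in opposite directions. These sizes depended on the measure. Ranked by fold, the shift was 0.61 for H2ac11 with H2bc11, 0.31 for H4c2 and 0.33 for H1f2, still without overlap, and −0.15 for H2ac14 with H2bc14, whose genotypes then overlapped. Ranked among the best peaks of protein-coding genes alone, it was 0.55 for H2ac11, 0.25 for H4c2 and −0.19 for H2ac14, while for H2ac12 it was −1.10, close to its −1.20. The direction for H2ac12 was lost by fold. Its fold over background was 11.3 and 11.05 in wt and 10.4 and 11.01 in Hox-/-, and ranked by fold its shift was 0.0044 with overlapping genotypes.

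The count of genes also depended on the measure of strength. Ranked by fold over background in place of −log10 p, 30 of 50 histone genes ranked higher in Hox-/- (60%) and 0 lower (0%), against 24.1% and 15.6% of all other protein-coding genes and 21.7% and 12.8% of other short genes. The median rank by fold was 52879 and 53929 in wt and 44214 and 45325 in Hox-/-, and 48 of 50 genes had a positive shift. The genotypes did not overlap in these medians, and the median shift was 0.14 against 0.06 for all other protein-coding genes. Genes of every class took part, 3 of the 6 H1, 8 of the 13 H2A, 7 of the 12 H2B, 6 of the 9 H3 and 6 of the 10 H4 genes with a rank. Genes that share a peak are each counted here, and the class counts have no background share of their own.

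Counting each shared peak once, 20 of 33 ranked higher in Hox-/- by fold and 0 lower, a count with no background share beside it. Leaving out 1 library at a time gave 33 to 42 of the 50 genes higher and 0 to 10 of the 50 lower. Of all other protein-coding genes 38.9% to 41.2% and 28.5% to 30.9% were then called. The 10 lower came without Hox-/- replicate 2, and a count of 4 lower without wt replicate 2. Ranked by −log10 p in each whole list, divided by its length, 8 genes were higher (16%) and 12 lower (24%), against 10.9% and 30.6% of all other protein-coding genes and 7.51% and 29.2% of other short genes. So the split of higher against lower calls was 9 to 4, 30 to 0 and 8 to 12 under the 3 rankings. Dividing by list length moved the median shift of the histone genes to −0.12 and that of all other protein-coding genes to −0.13, so the 8 to 12 split holds an offset common to all genes. Under each of the 3 rankings the share of histone genes ranked lower was below that of all other protein-coding genes, and the share ranked higher was above it under the last 2 and slightly below it under the first.

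**Figure D5:**
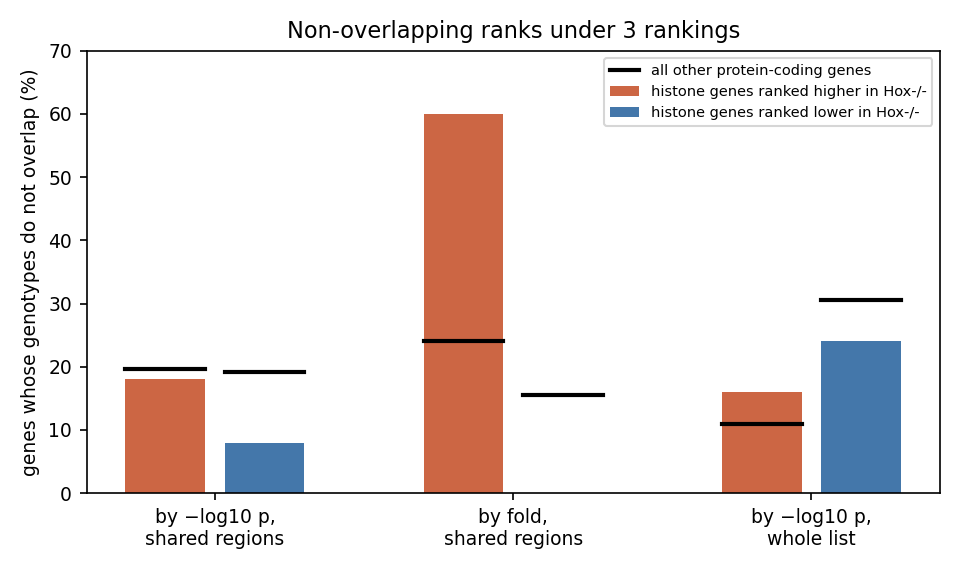
Share of the 50 histone genes with a peak whose 2 Hox-/- ranks both lie above (red) or below (blue) both wt ranks, in percent, under 3 ways of ranking, with black lines for all other protein-coding genes. Ranked by fold, 60% of the histone genes lie higher in Hox-/- against 24.1% of all other genes, and by −log10 p among shared regions 18% against 19.7%.

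Related genes elsewhere in the genome showed the background of these values. All 13 histone genes of this kind on other chromosomes had peaks in every library, with a median rank of 14351, and 3 ranked higher and 2 lower in Hox-/- by −log10 p, where 19.7% and 19.1% of all other protein-coding genes did. Several of the 13 share a peak, as H2ac21, H2ac20 and H2bc21 do. All 10 genes listed as replacement histones, which can be expressed outside S phase, had peaks as well, with a median rank of 12516, and 1 ranked higher and 2 lower. By the geometric mean of the 4 ranks, the strongest of these were H2az2 (H2A.Z.2), at 487, 721, 834 and 738, and H2ax, whose product is phosphorylated at DNA breaks, at 2621, 3065, 1123 and 2680. The ranks of H2az2 did not overlap between the genotypes and were poorer in Hox-/-, and those of H2ax overlapped.

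Of 17 genes for the expression of histone genes, all had peaks in each library, with a median rank of 11276, and 2 ranked higher and 4 lower in Hox-/-. Npat, the coactivator, ranked 309 and 435 in wt and 391 and 421 in Hox-/-. Slbp, the stem-loop binding protein, ranked 776, 972, 464 and 955, and the genotypes overlapped in both genes. Hinfp, the factor that binds H4 promoters, ranked 860 and 795 in wt and 492 and 450 in Hox-/-, a shift of 0.81 without overlap. Zfp473, a zinc finger protein of the U7 processing complex, ranked 1957 and 1203 in wt and 2483 and 3020 in Hox-/-, a shift of −0.84, also without overlap. These shares too stand beside the 19.7% and 19.1% of all other protein-coding genes.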

How the data were processed

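ATAC-seq libraries of wt and Hox-/- mouse embryonic stem cells, 2 of each, were compared through the deposited peak lists, 1 per library, with none pooled over replicates. Groups are the genotype labels. The submitters' processing notes name the build mm10 and cutadapt 4.8, Bowtie2 2.5.0, Picard 2.18.2, bedtools 2.30.0, MACS2 2.2.9.1 and deepTools 3.5.4 without their roles. The handling of duplicates, of reads that match several places and of the transposase offset is not given in the sources used here. Each deposited line holds an interval, an integer score, a fold over background (a ratio), a p and a q (each as −log10), and the summit's distance from the interval start, all the authors' values, used only to describe and rank peaks within a list. The lowest deposited −log10 q was 1.30, so weaker peaks are not part of the lists. No read counts are given, so depth is unknown.

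Gene positions, symbols and promoter sequences came from RefSeq tables (GRCm38.p6). A gene's window was the gene and 1 kb on either side, with an overlap of at least 1 bp. Peaks were merged into regions, and each best peak was ranked among the 122787 regions called in all 4 libraries. Scripts used Python 3.11.15, numpy 2.4.6, pandas 2.3.3 and scipy 1.17.1 and were tested on simulated data.

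Named genes are the strongest and poorest of each class, those without a peak, the 3 largest shifts in each direction, the 3 widest and narrowest, testis genes, and examples from the lists; pair examples, H1 and H4 genes described by summit place, were added after their values were seen. The genes and lists were chosen with earlier results of these data known. Alternatives were other windows, stricter peak sets, other rankings and each library left out.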

Additional observations from a re-analysis of the deposited data

How the results depend on the processing

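With only the 50000 strongest peaks of each list, the share of histone genes with a peak in all libraries fell to 79.6%, and 2 genes, H4c18 and H2ac24 with their shared peak, were called in Hox-/- only (3.70%, against 0.334% of all other protein-coding genes under the same limit). These 2 were named after their values had been seen. With windows of 0.25 or 2.5 kb the share was 88.9% and 94.4%, and with the 100000 strongest peaks or a −log10 q of at least 5 it was 92.6%. The counts of genes ranked higher and lower in Hox-/- were 9 and 4. Ranked by fold they were 30 and 0, and the shift of H2ac12 and H2bc12 turned to 0.0044. Ranked in the whole list the lower count was 12, and with each shared peak counted once, chosen after seeing the data, 2. In each of these the cause was not tested.

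With 1 library left out, the share stayed at 92.6%, the counts called in 1 genotype only at 0 and 0, the higher count ran from 14 to 20, the lower count from 11 to 17, the median rank shift from 0.0045 to 0.069 and the width difference from −9 to −2 bp. Fewer libraries make it easier not to overlap. These counts were 28% to 40% of the histone genes higher and 22% to 34% lower. All other protein-coding genes then gave 33.0% to 38.0% higher and 32.5% to 36.1% lower. Each of the 4 libraries moved these counts by over 1.5 times.

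The differences between replicates 1 and 2 did not correlate between the genotypes (0.0040 over 122787 regions), so the numbers do not pair the libraries. With the replicate block, 13 genes ranked higher and 13 lower (26% and 26%, against 27.5% and 26.9% of all other protein-coding genes), with a median shift of 0.0096 and a median width difference of −8.5 bp. Leaving out the genes spanning over 2 kb, also chosen after seeing the data, moved none of the counts. The exact permutation test of 2 against 2 libraries cannot pass 0.05, and the depth behind the peaks is unknown.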

Other observations

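The same stretch of chromosome 13 holds 79 tRNA genes, of which 75 had a listed peak within 1 kb in all 4 libraries (94.9%) and 3 had none in any. Of 408 tRNA genes in the whole genome, 69.4% had one in all libraries. Only 1 of the 79 lay close enough to a histone gene to share its window, and without it the count was 74 of 78. The median rank of the tRNA genes of the stretch was 20630 and 21061 in wt and 21121 and 22490 in Hox-/-, behind the 12148, 13338, 10068 and 10591 of the histone genes. Of the 75 tRNA genes 19 ranked higher and 17 lower in Hox-/-, with a median shift of −0.03. Of the 283 in the whole genome with peaks in all libraries, which include these, 77 ranked higher and 38 lower, with a median shift of 0.06, and of all protein-coding genes outside the histone group 19.7% and 19.1% did.

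The best ranked other protein-coding genes of the stretch were the zinc finger genes Zfp322a, at 2221, 2150, 2816 and 1652, and Zfp184, at 5897, 7932, 8384 and 12593, and Btn2a2, at 13702, 13551, 8284 and 14372. Of the 3, Zfp184 ranked lower in both Hox-/- libraries than in both wt libraries.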
